A study of Mus musculus with 14 samples.

Results

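The 39 protein-coding Hox genes of the mouse were followed through RNA-seq of embryonic fibroblasts with and without an induced deletion of Tip60, the histone acetyltransferase encoded by Kat5. Members were every gene whose symbol is Hox, a cluster letter (a to d) and a number, 39 of the 26270 gene identifiers in the count tables. Of these, 35 passed the filter on low counts and were tested, and Hoxb1, Hoxb13, Hoxc12 and Hoxd1 did not pass. All libraries came from E13.5 mouse embryonic fibroblasts (MEFs, the mixed mesenchymal cells that grow out of a dissociated embryo) kept in 3% oxygen. They form 4 groups: Tip60-/- cells (KO) at day 5 (4 libraries) and at day 3 (3 libraries), and Tip60+/+ cells (controls) at day 5 (4 libraries) and at day 3 (3 libraries). Deletion was induced with 250 nM 4-OHT, the tamoxifen metabolite that activates inducible Cre recombinases. The treatment text is the same for every sample, so the labels do not settle whether controls also received 4-OHT, and they name neither the Cre line nor the promoter that drives it.

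Embryo labels matter for genes of position. The KO libraries carry 4 embryo labels (159-e1, 136-e2-II, 153-e3 and 153-e5) and the controls another 4 (218-e1, 218-e2, 218-e6 and 219-e6-I). The labels put the 218 embryos in litter 1 and 219-e6-I in litter 2, and 159-e1, 136-e2-II and the 153 embryos in litters 1, 2 and 3; they do not say whether a litter number means the same in both genotypes. No number prefix is shared by the genotypes, so a difference between KO and control cells cannot be told apart from a difference between those embryos. Embryos 136-e2-II, 153-e3, 153-e5, 218-e1 and 218-e6 gave libraries at both days, and 218-e1 gave replicates 1 and 2 of the day 3 controls. Sex was uneven as well, with 5 male libraries of 7 in KO and 1 of 7 in controls, the male control being 219-e6-I (day 5, replicate 4). Within a group the p-values therefore measure the spread between libraries that can share an embryo.

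Hox genes encode homeodomain transcription factors and lie in clusters in which gene order follows the order of expression along the body: low paralogue numbers are used from the hindbrain and neck backwards, high numbers in the loins, tail, distal limb and genital region. The proteins bind DNA together with PBX and MEIS partners, and their on or off state is held by Polycomb and Trithorax complexes. Fibroblasts keep much of this code in culture, so that it reflects the part of the body from which they grew.

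The libraries held 2182919 to 39113170 counts in genes (median 13955282), and day 3 KO replicate 3 (153-e3) was the shallowest. Kat5 stood at 23.2, 22.5 and 19.5 TPM in day 3 KO libraries, against 32.4, 32.9 and 33.2 TPM in day 3 controls. At day 5 it stood at 20.3, 21.1, 22.4 and 21 TPM in day 5 KO libraries, against 33.4, 31.6, 34.7 and 31.9 TPM in day 5 controls. Its transcript was lower in every KO library, but a large part of its counts remained (log2 fold change -0.68 ± 0.09 (SE), adjusted p = 2.02e-05 at day 3, and log2 fold change -0.75 ± 0.07 (SE), adjusted p = 1.59e-06 at day 5), and no source used here names the deleted exons. Of the 15 listed fibroblast genes, some were high throughout, with Col1a1 at 3053 to 7980 TPM and Pdgfrb at 112 to 241 TPM. Others were lower or varied more, with Pdgfra at 12.4 to 50.4 TPM, Lum at 6.51 to 88.4 TPM and Fap at 1.46 to 10.3 TPM. Markers of other cells were mixed: in the list of macrophages and blood Lyz2 stood at 46.6 to 187 TPM, Cd68 at 16.2 to 38.5 TPM and Csf1r at 6.46 to 14.7 TPM, while Ptprc reached at most 2.05 TPM and 1 of its 10 genes, Hba-a1, was at 0. That list summed to 86.8 to 126 TPM in day 3 KO libraries, against 136 to 180 TPM in day 3 controls, and to 140 to 250 TPM in day 5 KO libraries, against 129 to 179 TPM in day 5 controls. The endothelial list summed to 9.71 to 12.6 TPM in day 3 KO libraries, against 7.37 to 9.73 TPM in day 3 controls, and to 9.52 to 12.7 TPM in day 5 KO libraries, against 4.39 to 6.35 TPM in day 5 controls, with Pecam1 at most 0.433 TPM. In the endothelial list Tek stood at 3.10 to 5.83 TPM in KO and 0.776 to 1.06 TPM in control libraries. The neural and glial list summed to 179 to 256 TPM in day 3 KO libraries, against 97.0 to 142 TPM in day 3 controls. At day 5 it summed to 232.5 to 338 TPM in KO libraries, against 193 to 232.4 TPM in controls. Over all libraries the skeletal muscle list summed to 255 to 637 TPM, most of it Acta1. The epithelial list summed to 9.06 to 56.9 TPM. The part of these lists in the results was not tested. Of the 14327 genes tested, 50.9% were called between KO and control at day 3 and 52.5% at day 5 (edgeR quasi-likelihood test, Benjamini-Hochberg adjusted p under 0.05), so a call by itself sets no gene apart here. Of the 15 fibroblast genes, 7 rose and 1 fell in KO cells at day 3 (53.3% called), and 5 rose and 5 fell at day 5 (66.7% called).

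Upstream sequence was available for 22 members in RefSeq's table of the GRCm38.p6 build. The windows below are the 250 bases before the start of transcription of 3 HoxA genes that were higher in KO cells (Hoxa2, Hoxa5, Hoxa6), of Hoxd8, which was lower, and of Hoxd13, which differed between KO embryos. They are shown because CG dinucleotides, the targets of DNA methylation and a feature of Polycomb-bound promoters, mark these starts unequally. Capitals mark every CG.
Hoxa2 (chr6:52164832-52165081, minus strand): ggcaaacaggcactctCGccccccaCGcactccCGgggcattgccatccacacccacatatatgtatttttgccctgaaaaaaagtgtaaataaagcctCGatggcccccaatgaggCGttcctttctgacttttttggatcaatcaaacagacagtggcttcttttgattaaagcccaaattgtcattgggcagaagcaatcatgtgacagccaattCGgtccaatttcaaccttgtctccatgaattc
Hoxa5 (chr6:52204588-52204837, minus strand): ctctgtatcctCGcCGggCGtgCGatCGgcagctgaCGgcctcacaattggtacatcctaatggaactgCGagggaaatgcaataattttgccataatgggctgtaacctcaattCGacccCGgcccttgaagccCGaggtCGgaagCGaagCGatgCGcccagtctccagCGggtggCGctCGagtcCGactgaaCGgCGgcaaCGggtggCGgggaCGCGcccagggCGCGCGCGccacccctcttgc
Hoxa6 (chr6:52208673-52208922, minus strand): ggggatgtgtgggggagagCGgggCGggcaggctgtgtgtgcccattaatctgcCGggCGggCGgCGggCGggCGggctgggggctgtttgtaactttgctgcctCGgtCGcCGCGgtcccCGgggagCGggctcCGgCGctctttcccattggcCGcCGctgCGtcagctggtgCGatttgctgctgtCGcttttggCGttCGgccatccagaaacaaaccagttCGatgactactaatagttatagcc
Hoxd8 (chr2:74704365-74704614, plus strand): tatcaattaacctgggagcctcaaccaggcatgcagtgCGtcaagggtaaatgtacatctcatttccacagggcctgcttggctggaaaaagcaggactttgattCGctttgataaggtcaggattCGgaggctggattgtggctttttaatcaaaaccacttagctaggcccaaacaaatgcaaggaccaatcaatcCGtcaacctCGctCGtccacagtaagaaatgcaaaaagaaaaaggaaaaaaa
Hoxd13 (chr2:74667975-74668224, plus strand): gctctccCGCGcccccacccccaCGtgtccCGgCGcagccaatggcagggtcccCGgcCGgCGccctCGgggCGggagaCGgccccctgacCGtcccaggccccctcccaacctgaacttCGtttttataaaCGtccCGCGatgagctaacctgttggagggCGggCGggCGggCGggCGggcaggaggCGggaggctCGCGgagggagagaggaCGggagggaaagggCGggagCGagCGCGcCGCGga

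The Hoxd13, Hoxa5 and Hoxa6 windows held 31, 28 and 24 CG, while Hoxa2 and Hoxd8 held 6 each. Over the 24 windows of the 22 members the median was 12.5 CG, against 6.0 over 32851 windows of all genes in the table, and 62.5% of member windows, against 37.8% of all, held 10 or more. A PBX-HOX core (TGATTNAT, both strands) lay in 2 member windows, 8.33% of them, against 2.82% of all windows. A MEIS core (TGACAG, both strands) also lay in 2 of them (8.33%, against 15.9% of all windows). The 2 motifs do not share letters where they were found, and Hoxa2 held both, the PBX-HOX core beginning 111 bases and the MEIS core 44 bases before the start. The 3 genes that rose thus span 6 to 28 CG.

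The level of each gene, per transcript length (TPM, transcript abundance scaled for gene length and library depth), gave the cultures a broad address. At least 1 TPM was reached in all 14 libraries by 30 members, reaching up to Hoxa11, Hoxb9, Hoxc10 and Hoxd13. Hoxc6, at 50.5 to 122 TPM (median 86.1), and Hoxb9, at 56.2 to 101 TPM (median 72.0), were the most abundant members in the mean over libraries. In TPM Hoxc6 exceeded Hoxb9 in every KO and day 5 control library, and Hoxb9 exceeded Hoxc6 in all 3 day 3 controls. In normalised CPM, which is not scaled for gene length, Hoxb9 exceeded Hoxc6 in every library except day 5 KO replicate 3. Behind them came Hoxa5, Hoxb6, Hoxc8 and Hoxd8, whose means over all libraries lay between 31.9 and 42.3 TPM and whose ranges overlapped. The middle of the axis, paralogues 4 to 8, thus carried the largest part of the summed Hox TPM in all 4 groups. Its share was 57.9% ± 3.15 in day 3 KO and 51.6% ± 2.17 in day 3 control libraries (SD, 3 and 3 libraries). It was 61.3% ± 1.95 in day 5 KO and 59.6% ± 4.73 in day 5 control libraries (SD, 4 and 4 libraries). Posterior members, paralogues 9 to 13, made up 30.0% ± 1.55 in day 3 KO and 36.4% ± 1.93 in day 3 control libraries, and 24.9% ± 3.17 in day 5 KO and 27.7% ± 4.83 in day 5 control libraries (SD). Within each day the KO share was lower on average. The day 5 ranges overlapped (20.6% to 28.1% in KO, against 20.8% to 32.0% in controls). The summed TPM of posterior members overlapped at both days: 184 to 211 in day 3 KO and 163 to 215 in day 3 control libraries. At day 5 it was 149 to 225 in KO and 160 to 204 in control libraries. Summed over all members, the range was 637 to 675 TPM in day 3 KO and 438 to 569 TPM in day 3 control libraries. Without scaling for gene length, day 3 controls averaged 44.2% in the middle and 41.7% posterior. Their replicate 1 had 41.7% and 42.5%.

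**Figure D1:**
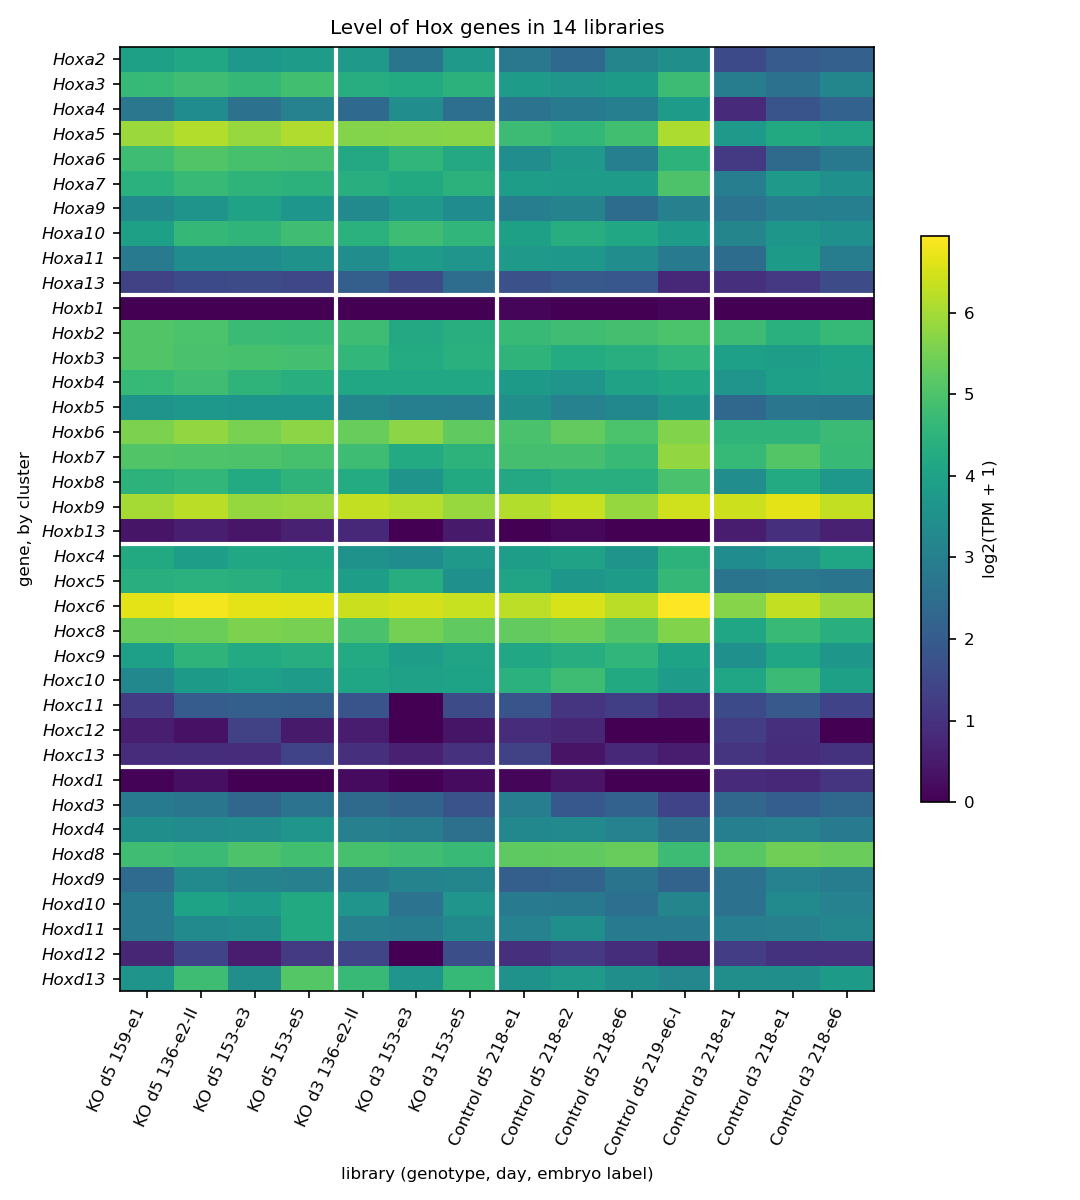
Level of Hox genes (rows, by cluster and paralogue number) in the 14 libraries (columns, by genotype, day and embryo label), coloured by log2(TPM + 1); white lines part the clusters and the groups. Hoxc6 and Hoxb9 are bright in every column, and Hoxa5 is bright in KO libraries and in control 219-e6-I.

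Several members at the ends of the axis were nearly silent, while Hoxd13 was at 8.2 to 33.6 TPM and Hoxb2 at 17.1 to 32.3 TPM. Hoxb1, the most restricted hindbrain gene of its cluster, had 2 counts over all 14 libraries. Hoxb13, a gene of the tail bud and prostate, had 41 counts, Hoxc12 had 38 and Hoxd1 had 33. Hoxc13 of hair and nail, Hoxc11, Hoxd12 and Hoxa13 reached group means of 0.772 to 3.29 TPM.

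Hox genes were called between KO and control cells less often than tested genes at large. Most of the members called were higher in KO cells, above all in the HoxA cluster. In all, 14 of the 35 tested members (40.0%) were called at day 3 and 12 (34.3%) at day 5, where 50.9% and 52.5% of all tested genes were called. At day 3, 11 of the 35 tested members (31.4%) rose and 3 (8.57%) fell, where 24.6% of all tested genes rose and 26.2% fell. At day 5, 8 members (22.9%) rose and 4 (11.4%) fell, where 26.3% of all tested genes rose and 26.2% fell. The median log2 fold change of the tested members was 0.34 at day 3 and 0.17 at day 5, and that of all tested genes 0.00 and 0.02. Members are neighbours in the genome and do not count as independent genes.

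**Figure D2:**
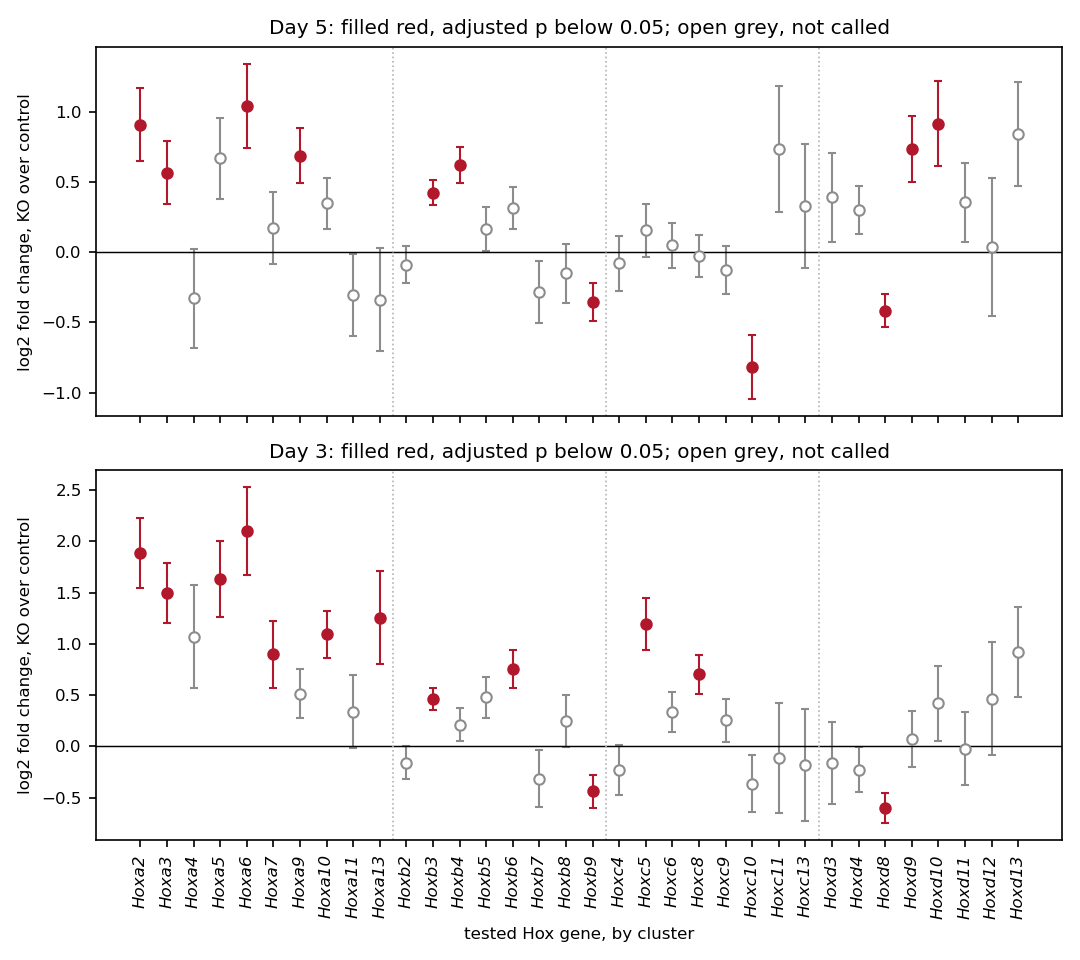
Log2 fold change of KO over control (vertical axis, with SE) for tested Hox genes at day 5 (upper panel) and day 3 (lower panel), in order of cluster and number; filled red points were called and dotted lines part the clusters. Most red points at day 3 lie in the HoxA cluster, up to 2.10 for Hoxa6, while Hoxb9 and Hoxd8 lie below 0 at both days.

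The HoxA cluster held most of the day 3 calls: 7 of its 11 members rose and 1 fell, against 2 and 1 of 8 tested in HoxB, 2 and 0 of 8 in HoxC, and 0 and 1 of 8 in HoxD. At day 5, 4 HoxA members rose and 1 fell, while 2 rose and 1 fell in HoxB, none rose and 1 (Hoxc10) fell in HoxC, and 2 rose and 1 fell in HoxD. The clusters were not tested against each other. HoxA genes made up 27.0% ± 1.68 of the summed Hox TPM in day 3 KO libraries and 14.6% ± 1.87 in day 3 controls, and 26.9% ± 0.805 in day 5 KO libraries and 21% ± 3.03 in day 5 controls (SD).

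**Figure D3:**
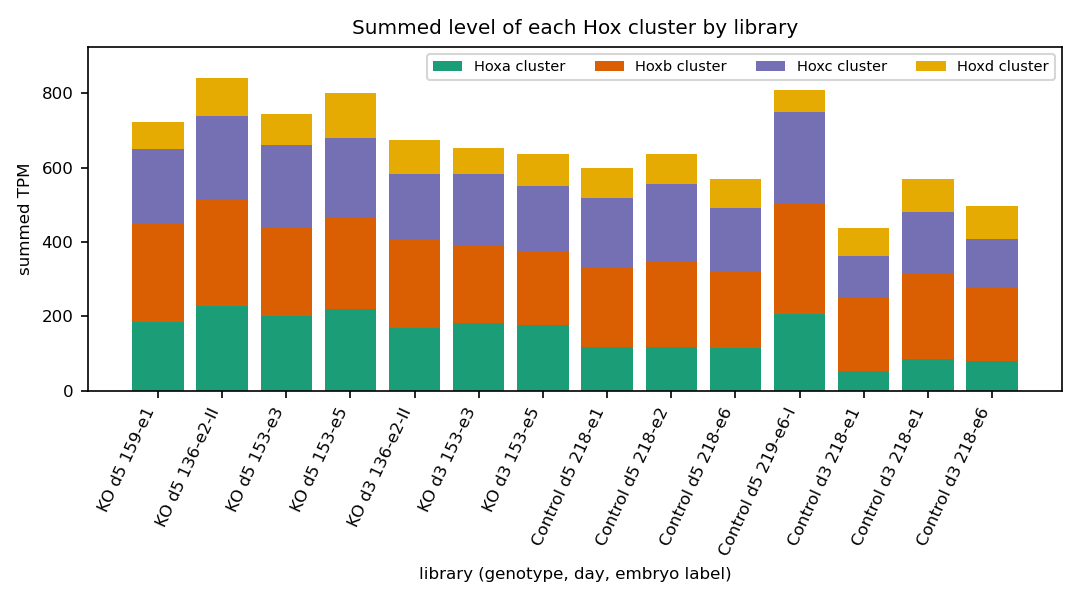
Summed TPM of the members of each Hox cluster (stacked bars, starting at 0) in the 14 libraries. The HoxA part is 169 to 229 TPM in KO libraries and 205 TPM in control 219-e6-I, against 54.7 to 118 TPM in the 218 controls.

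Anterior members, paralogues 1 to 3, pattern the hindbrain and pharyngeal arches. Hoxa2, the selector gene of the second arch, had 12.2, 5.53 and 12.3 TPM in day 3 KO libraries, against 1.95, 2.99 and 3.36 TPM in day 3 controls. At day 5 Hoxa2 had 14.4, 16.7, 11.9 and 13.4 TPM in day 5 KO libraries, against 5.88, 4.15, 7.97 and 9.96 TPM in day 5 controls. No KO library overlapped a control at either day, and Hoxa2 rose at both (log2 fold change 1.89 ± 0.34 (SE), adjusted p = 0.000443 at day 3, and log2 fold change 0.91 ± 0.26 (SE), adjusted p = 0.00903 at day 5). Hoxa3, needed for thymus and parathyroid, had 19.2, 17.8 and 21.1 TPM in day 3 KO libraries, against 6.55, 5.14 and 8.11 TPM in day 3 controls. At day 5 Hoxa3 had 24.3, 27, 23.7 and 27.5 TPM in day 5 KO libraries, against 13.1, 11.4, 12.8 and 25.9 TPM in day 5 controls. Hoxa3 rose at day 3 (log2 fold change 1.50 ± 0.29 (SE), adjusted p = 0.000862), and at day 5 the control 219-e6-I, given last, lay among the KO values (log2 fold change 0.57 ± 0.22 (SE), adjusted p = 0.0478). Its day 5 call was lost when day 5 KO replicate 1, 2, 3 or 4, or day 5 control replicate 1, 2 or 3 was left out, or when low counts were not filtered or when sex was a covariate (adjusted p = 0.0628 to 0.144). Without day 5 control replicate 4 (219-e6-I) the same day 5 comparison gave a log2 fold change of 0.95 ± 0.13 (SE), adjusted p = 1.3e-05.

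Hoxb3, a hindbrain and neck gene, had 23.1, 18.2 and 20.3 TPM in day 3 KO libraries, against 14, 13.7 and 15.4 TPM in day 3 controls. At day 5 Hoxb3 had 32.3, 29.8, 29.2 and 28.4 TPM in day 5 KO libraries, against 21.8, 18.2, 19.6 and 22.7 TPM in day 5 controls. KO libraries lay above controls at both days by about the same step (log2 fold change 0.46 ± 0.11 (SE), adjusted p = 0.003 at day 3, and log2 fold change 0.42 ± 0.09 (SE), adjusted p = 0.00126 at day 5). Hoxb2, which shapes the facial nerve, had 26.7, 17.1 and 19.3 TPM in day 3 KO libraries, against 26.1, 20.2 and 23.9 TPM in day 3 controls. At day 5 Hoxb2 had 32.3, 30.4, 25.6 and 24.7 TPM in day 5 KO libraries, against 24.8, 26.9, 28.8 and 30.5 TPM in day 5 controls, and it was not called at either day. Hoxd3, of the upper neck, ranged over 1.64 to 6.87 TPM in all libraries and was not called.

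Central members, paralogues 4 to 8, belong to the neck and thorax. Hoxa5, which patterns the cervical spine and lung, had 49, 50.3 and 51.3 TPM in day 3 KO libraries, against 12.2, 17.6 and 15.7 TPM in day 3 controls. At day 5 Hoxa5 had 58.1, 69, 57.3 and 67.7 TPM in day 5 KO libraries, against 26.1, 23.3, 27.4 and 67.5 TPM in day 5 controls. The day 3 groups were far apart (log2 fold change 1.63 ± 0.37 (SE), adjusted p = 0.00302). At day 5 the fourth control (219-e6-I) stood among the KO values, and the gene was not called (log2 fold change 0.67 ± 0.29 (SE), adjusted p = 0.0711). Without that library its log2 fold change was 1.21 ± 0.11 (SE), adjusted p = 3.31e-07.

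Hoxa6, a thoracic gene, had 17.3, 22.8 and 17.1 TPM in day 3 KO libraries, against 1.28, 4.32 and 5.97 TPM in day 3 controls. At day 5 Hoxa6 had 26.6, 32.1, 29.2 and 28.7 TPM in day 5 KO libraries, against 9.6, 12.4, 7.03 and 21.2 TPM in day 5 controls. It had the largest fold change of any tested member at day 3 (log2 fold change 2.10 ± 0.43 (SE), adjusted p = 0.00098) and rose at day 5 (log2 fold change 1.04 ± 0.30 (SE), adjusted p = 0.00913), with no overlap at either day. Hoxa7, also thoracic, had 19.7, 17.7 and 21 TPM in day 3 KO libraries, against 6.86, 12.6 and 10.2 TPM in day 3 controls. At day 5 Hoxa7 had 20.5, 24.9, 22 and 21.1 TPM in day 5 KO libraries, against 13.9, 13.3, 13 and 30.8 TPM in day 5 controls. Hoxa7 rose at day 3 (log2 fold change 0.90 ± 0.33 (SE), adjusted p = 0.0336), while at day 5 control 219-e6-I exceeded all KO libraries and the gene was not called (log2 fold change 0.17 ± 0.26 (SE), adjusted p = 0.595). Its day 3 call was lost when day 3 KO replicate 2 or 4, or day 3 control replicate 1 or 3 was left out, or when sex was a covariate or when replicate number was a block or when the day 3 control libraries of 218-e1 were summed (adjusted p = 0.0558 to 0.116). Without day 5 control replicate 4 its day 5 log2 fold change was 0.61 ± 0.15 (SE), adjusted p = 0.0027. Hoxa4, of the neck, had 4.18, 9.57 and 4.79 TPM in day 3 KO libraries, against 0.779, 2.5 and 3.53 TPM in day 3 controls. The groups did not overlap, yet Hoxa4 was not called (log2 fold change 1.07 ± 0.50 (SE), adjusted p = 0.0874), and day 5 levels overlapped (5.72, 9.37, 5.02 and 7.49 TPM in KO, against 5.2, 6.21, 7.02 and 12.9 TPM in controls).

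**Figure D4:**
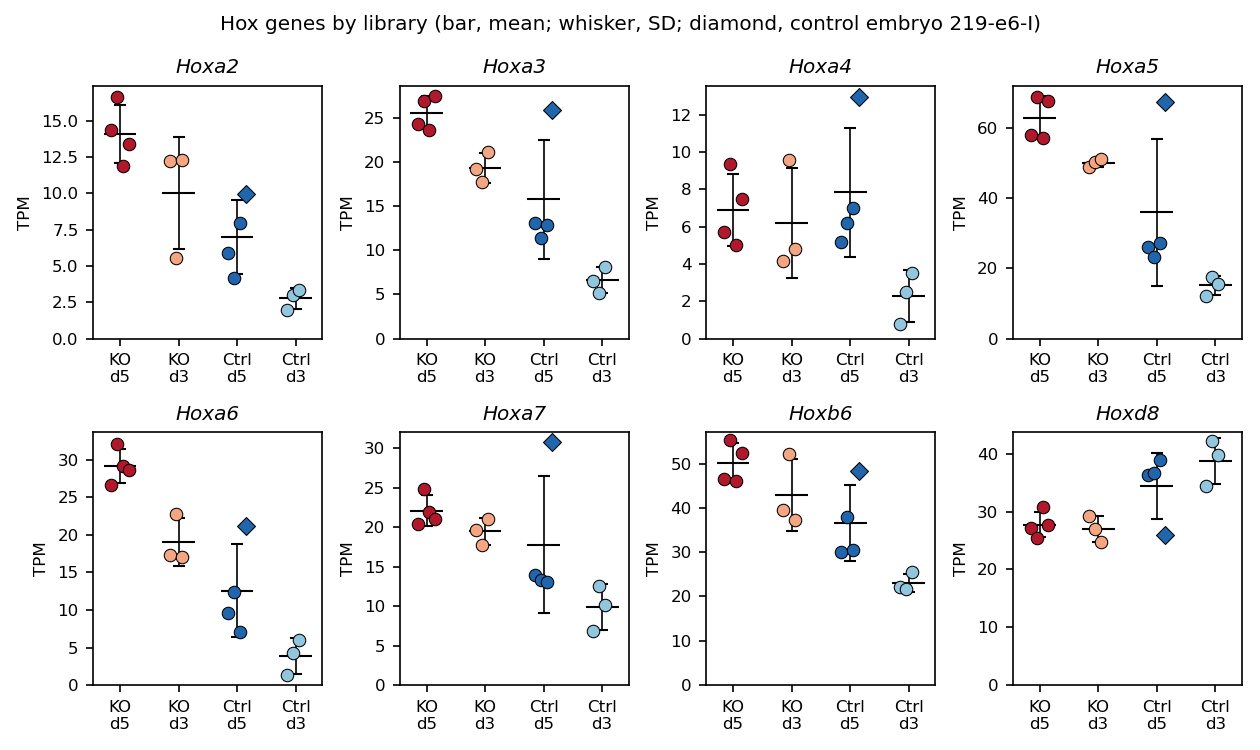
TPM (vertical axes, from 0) of 6 neighbouring HoxA genes and Hoxb6, whose day 3 KO libraries lay above the day 3 controls, and of Hoxd8, whose day 3 KO libraries lay below them; points are libraries, bars and whiskers the mean and SD, and the diamond is control embryo 219-e6-I. For Hoxa3 and Hoxa5 the diamond sits within the day 5 KO range, at 25.9 and 67.5 TPM.

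In HoxB, Hoxb6, a gene of thoracic lateral mesoderm, had 39.5, 52.3 and 37.2 TPM in day 3 KO libraries, against 22.1, 21.8 and 25.4 TPM in day 3 controls. At day 5 Hoxb6 had 46.6, 55.3, 46 and 52.3 TPM in day 5 KO libraries, against 30.0, 37.9, 30.4 and 48.3 TPM in day 5 controls. It rose at day 3 (log2 fold change 0.76 ± 0.18 (SE), adjusted p = 0.00366), and at day 5 control 219-e6-I again lay among the KO values (log2 fold change 0.31 ± 0.15 (SE), adjusted p = 0.0869). Without day 5 control replicate 4, Hoxb6 was called at day 5 as well (log2 fold change 0.49 ± 0.12 (SE), adjusted p = 0.00238). Hoxb4, known for its role in blood stem cells, had 16.5, 16.6 and 16.6 TPM in day 3 KO libraries, against 11.4, 14 and 14.9 TPM in day 3 controls. At day 5 Hoxb4 had 23.9, 27, 21.8 and 19.6 TPM in day 5 KO libraries, against 12.9, 11.2, 15 and 16.5 TPM in day 5 controls, and it rose at that day (log2 fold change 0.62 ± 0.13 (SE), adjusted p = 0.00116). At day 3 its groups did not overlap, but the gene was not called (log2 fold change 0.21 ± 0.16 (SE), adjusted p = 0.278).

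Hoxb7, of the thorax, had 26.8, 17.8 and 21.4 TPM in day 3 KO libraries, against 23.9, 33 and 24.4 TPM in day 3 controls. At day 5 Hoxb7 had 32.4, 31.8, 30.8 and 29 TPM in day 5 KO libraries, against 28.8, 28.6, 24.6 and 55.1 TPM in day 5 controls; the value of 219-e6-I, 55.1 TPM, was the highest of all 14 libraries. Hoxb8, known from microglia and spinal cord, had 18.4, 11.1 and 17.6 TPM in day 3 KO libraries, against 9.56, 17.8 and 12 TPM in day 3 controls. At day 5 Hoxb8 had 21.5, 23.3, 17.9 and 21.8 TPM in day 5 KO libraries, against 17.1, 19.4, 19.6 and 29.8 TPM in day 5 controls. Neither gene was called at either day, nor was Hoxb5, of the forelimb level, which spanned 4.08 to 12.1 TPM in all libraries.

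In HoxC, Hoxc5 of the neck had 13.7, 19 and 10.2 TPM in day 3 KO libraries, against 5.34, 5.82 and 5.39 TPM in day 3 controls. At day 5 Hoxc5 had 19.9, 20.7, 19.5 and 18 TPM in day 5 KO libraries, against 15.5, 11.8, 13.4 and 23.5 TPM in day 5 controls. The clear gap of day 3 (log2 fold change 1.20 ± 0.25 (SE), adjusted p = 0.00139) was not seen at day 5, where the groups overlapped (log2 fold change 0.15 ± 0.19 (SE), adjusted p = 0.514). The same held for Hoxc8, which sets the identity of thoracic vertebrae and brachial motor neurons. Hoxc8 had 29.7, 43.7 and 36.8 TPM in day 3 KO libraries, against 16.3, 25 and 19.99 TPM in day 3 controls. At day 5 Hoxc8 had 38.9, 40.5, 46.1 and 44.4 TPM in day 5 KO libraries, against 37.6, 40.6, 32.1 and 48.5 TPM in day 5 controls. It rose at day 3 (log2 fold change 0.70 ± 0.19 (SE), adjusted p = 0.00734) and was not called at day 5 (log2 fold change -0.03 ± 0.15 (SE), adjusted p = 0.896). Without day 5 control replicate 4 (219-e6-I), Hoxc5 was called at day 5 too (log2 fold change 0.43 ± 0.14 (SE), adjusted p = 0.0133).

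Hoxc6, a gene of the anterior thorax, had 83, 89.3 and 81.3 TPM in day 3 KO libraries, against 50.5, 78.3 and 58.4 TPM in day 3 controls. At day 5 Hoxc6 had 99.6, 113, 99.2 and 96.6 TPM in day 5 KO libraries, against 75, 90.4, 73.5 and 122 TPM in day 5 controls. It was called at neither day. Its day 3 groups were separate in TPM but overlapped in normalised CPM (47.4 to 50.3 in KO, against 30.8 to 48.3 in controls). Hoxc4 of the neck had 10.7, 9.38 and 12.3 TPM in day 3 KO libraries, against 9.45, 11.4 and 15.8 TPM in day 3 controls. At day 5 Hoxc4 had 17.6, 13.6, 16.6 and 15.9 TPM in day 5 KO libraries, against 13.9, 15.1, 11 and 21.3 TPM in day 5 controls, and it was not called either.

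Hoxd8, of the trunk, was the central member that fell. It had 29.3, 27.1 and 24.8 TPM in day 3 KO libraries, against 34.5, 42.2 and 39.8 TPM in day 3 controls. At day 5 Hoxd8 had 27.2, 25.5, 30.8 and 27.6 TPM in day 5 KO libraries, against 36.3, 36.7, 38.9 and 26 TPM in day 5 controls. The day 3 groups were separate (log2 fold change -0.60 ± 0.14 (SE), adjusted p = 0.00324), and at day 5 the 218 controls lay above every KO library while 219-e6-I lay among them (log2 fold change -0.42 ± 0.12 (SE), adjusted p = 0.00919). Its day 5 call was lost when sex was a covariate (adjusted p = 0.0512). Hoxd4 had 9.95, 9.27, 9.5 and 11.2 TPM in day 5 KO libraries, against 8.48, 8.99, 7.5 and 4.9 TPM in day 5 controls, and was not called (log2 fold change 0.30 ± 0.17 (SE), adjusted p = 0.157). Its groups were separate in TPM but overlapped in normalised CPM (7.88 to 10.0 in KO, against 4.8 to 8.56 in controls).

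Posterior members, paralogues 9 to 13, pattern the lower trunk, the limbs and the genital tubercle. Hoxa10, a gene of the lumbar spine and uterus, had 20.4, 26.6 and 22.9 TPM in day 3 KO libraries, against 7.95, 11.7 and 10.2 TPM in day 3 controls. At day 5 Hoxa10 had 14.5, 23.5, 22.3 and 26.9 TPM in day 5 KO libraries, against 14.4, 18.9, 17.1 and 13 TPM in day 5 controls. Hoxa10 rose at day 3 (log2 fold change 1.09 ± 0.23 (SE), adjusted p = 0.00127) and was not called at day 5 (log2 fold change 0.35 ± 0.18 (SE), adjusted p = 0.126). Hoxa9, active in limb and blood progenitors, had 8.97, 11.1, 15 and 11.6 TPM in day 5 KO libraries, against 6.84, 7.61, 4.52 and 7.11 TPM in day 5 controls. It rose at day 5 (log2 fold change 0.69 ± 0.19 (SE), adjusted p = 0.00808). At day 3 it had 8.83, 12.3 and 9.32 TPM in day 3 KO libraries, against 5.24, 6.82 and 7.02 TPM in day 3 controls, without overlap but not called (log2 fold change 0.51 ± 0.24 (SE), adjusted p = 0.0864). Hoxa13, of digits and the genital tubercle, had 3.3, 2.02 and 4.55 TPM in day 3 KO libraries, against 0.906, 1.23 and 2.06 TPM in day 3 controls. These low values were called (log2 fold change 1.25 ± 0.45 (SE), adjusted p = 0.0321) although the groups overlapped. Its day 3 call was lost when day 3 KO replicate 2 or 4, or day 3 control replicate 1 or 2 was left out, or when replicate number was a block or when the day 3 control libraries of 218-e1 were summed (adjusted p = 0.0502 to 0.118). Hoxa11, of the forearm, spanned 4.51 to 13.0 TPM in all libraries and was not called.

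Hoxb9, which patterns the ribs, had 78.6, 70.8 and 57.3 TPM in day 3 KO libraries, against 84.9, 101 and 78.2 TPM in day 3 controls. At day 5 Hoxb9 had 63.5, 73.1, 56.2 and 58.3 TPM in day 5 KO libraries, against 70.2, 81.5, 56.9 and 85.3 TPM in day 5 controls. It fell at day 3 (log2 fold change -0.44 ± 0.16 (SE), adjusted p = 0.032) and at day 5 (log2 fold change -0.36 ± 0.13 (SE), adjusted p = 0.0378) by a small step. Its day 3 call was lost when day 3 KO replicate 3 or 4, or day 3 control replicate 1 or 2 was left out, or when low counts were not filtered or when sex was a covariate or when the day 3 control libraries of 218-e1 were summed (adjusted p = 0.0521 to 0.147). Its day 5 call was lost when day 5 KO replicate 1, 3 or 4, or day 5 control replicate 2 or 4 was left out, or when sex was a covariate (adjusted p = 0.0695 to 0.105). Hoxb9 thus stood close to the threshold on both days.

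Hoxc10, of the lumbar region and hindlimb, had 8.47, 12.7, 14.1 and 13.2 TPM in day 5 KO libraries, against 20.7, 26.7, 17.5 and 13.3 TPM in day 5 controls. It fell at day 5 (log2 fold change -0.82 ± 0.23 (SE), adjusted p = 0.00832), the KO libraries lying below the 218 controls on both scales. The lowest control, 219-e6-I, lay among the KO values in TPM and above them in normalised CPM (5.46 to 9.5 in KO, against 9.75 to 19 in controls). At day 3 it had 16.4, 14.6 and 15.2 TPM in day 3 KO libraries, against 16.3, 25.6 and 14.5 TPM in day 3 controls, and the groups overlapped. Hoxc9, of the thorax, had 17.9, 13.9 and 15.5 TPM in day 3 KO libraries, against 10.2, 16.1 and 11.9 TPM in day 3 controls. At day 5 Hoxc9 had 14, 21.9, 17.8 and 19.1 TPM in day 5 KO libraries, against 16.7, 19.2, 22.9 and 15.2 TPM in day 5 controls, and it was not called at either day. Hoxc11 and Hoxc13 were not called either.

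In HoxD, Hoxd9, which acts in the upper limb and lumbar cord, had 4.41, 8.86, 7.65 and 7.15 TPM in day 5 KO libraries, against 3.28, 3.65, 5.32 and 3.62 TPM in day 5 controls. Hoxd9 rose at day 5 (log2 fold change 0.73 ± 0.23 (SE), adjusted p = 0.0157). Its day 5 call was lost when day 5 control replicate 1 was left out (adjusted p = 0.0525). Hoxd10, of lumbar motor neurons and the hindlimb, had 6.39, 15.3, 12.9 and 17.7 TPM in day 5 KO libraries, against 6.32, 6.0, 4.74 and 7.87 TPM in day 5 controls. It rose as well (log2 fold change 0.92 ± 0.30 (SE), adjusted p = 0.0203), its lowest KO value, from 159-e1, lying among the controls. Its day 5 call was lost when day 5 KO replicate 4, or day 5 control replicate 2 or 3 was left out (adjusted p = 0.0526 to 0.0696). At day 3, Hoxd9 had 6.19, 7.59 and 8.14 TPM in day 3 KO libraries, against 5.1, 7.47 and 6.66 TPM in day 3 controls, without a call. Hoxd10 had 11.2, 5.2 and 11.4 TPM in day 3 KO libraries, against 4.99, 8.88 and 7.41 TPM in day 3 controls, and was not called. Hoxd11 and Hoxd12 were not called at either day.

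The controls themselves fell into unequal embryos. In a fit with a mean for each embryo and a day effect in each genotype, added after the data had been seen, 219-e6-I differed from the 218 embryos in 12.5% of tested genes, with 7.28% higher and 5.22% lower in 219-e6-I. Of the 35 tested Hox genes, 7 were higher in 219-e6-I and none was called lower (5 at an unadjusted p under 0.05). Between the 218 embryos no member was called by the same edgeR test, with 3 at an unadjusted p under 0.05 (0.00% of all tested genes called); no other tool was run on the embryo fit. The members called were Hoxa3 (log2 fold change 1.11 ± 0.18 (SE), adjusted p = 0.00126), Hoxa5 (log2 fold change 1.46 ± 0.16 (SE), adjusted p = 5.69e-05), Hoxa7 (log2 fold change 1.25 ± 0.24 (SE), adjusted p = 0.00408), Hoxb6 (log2 fold change 0.62 ± 0.18 (SE), adjusted p = 0.0388), Hoxb7 (log2 fold change 1.08 ± 0.20 (SE), adjusted p = 0.00371), Hoxc5 (log2 fold change 0.86 ± 0.19 (SE), adjusted p = 0.00936) and Hoxc6 (log2 fold change 0.68 ± 0.19 (SE), adjusted p = 0.0348). Of these 7, 6 are central members and 1, Hoxa3, is anterior. Embryo 219-e6-I is a single library, assumed in this fit to vary like the others, and it is also the only male control and the only one of litter 2, so embryo, sex and litter cannot be told apart among controls.

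Summed over Hoxa2 to Hoxa7, a run chosen after its values had been seen and given without a test, KO libraries reached 122 to 128 TPM at day 3 and 149 to 179 TPM at day 5. The 219-e6-I control reached 168 TPM, while the 218 controls reached 29.6 to 46.8 TPM at day 3 and 70.7 to 75.3 TPM at day 5. The 219-e6-I level of Hoxa3, Hoxa5, Hoxa11, Hoxb2, Hoxb5, Hoxb6, Hoxc9, Hoxc10, Hoxd8, Hoxd10 and Hoxd11 lay within the day 5 KO range, 11 of the 35 tested members. The 219-e6-I level was the highest of all 14 libraries for Hoxa4, Hoxa7, Hoxb7, Hoxb8, Hoxc4, Hoxc5, Hoxc6 and Hoxc8. For 24 tested members the 219-e6-I level lay outside the day 5 KO range. The matching shares over all tested genes were not computed, so neither result can be called particular to Hox genes.

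Leaving 219-e6-I out of the day 5 comparison gave 12 Hox genes higher and 3 lower in KO cells, where 58.7% of all tested genes were called in that fit, 30.2% higher and 28.5% lower. The 12 were Hoxa2, Hoxa3, Hoxa5, Hoxa6, Hoxa7, Hoxa9, Hoxb3, Hoxb4, Hoxb6, Hoxc5, Hoxd9 and Hoxd10, and Hoxc10 and Hoxd8 were among the lower ones. All 3 day 3 controls carry the 218 prefix, so the day 3 comparison has no other kind of control embryo.

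Most of the tested cartilage genes moved with the same split. The 13 listed cartilage markers, among them the collagen gene Col2a1 and the matrix gene Comp, summed to 1425 to 1621 TPM in day 3 KO libraries, against 53 to 109 TPM in day 3 controls. At day 5 they summed to 1240 to 2517 TPM in KO libraries, against 1454 TPM in control 219-e6-I and 119 to 222 TPM in the 218 controls. Col2a1 alone had 989, 1382, 1515 and 1974 TPM in day 5 KO libraries, against 108, 66.3, 162 and 1259 TPM in day 5 controls. Of the 12 tested, 11 rose in KO cells at day 3 and 7 at day 5 (91.7% and 58.3% of the list, where 24.6% and 26.3% of all tested genes rose). In 219-e6-I 8 were higher than in the 218 embryos, where 7.28% of all tested genes were higher. The edgeR test did not call Sox9 there (log2 fold change -0.11 ± 0.14 (SE), adjusted p = 0.673). Matn3, Col9a1 and Col11a2 were not called either, and Col11a2 had a log2 fold change of -0.73 ± 0.43 (SE). The part of the cartilage genes in the Hox differences was not tested, and in bulk RNA fewer cells of a type cannot be told apart from less RNA per cell.

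Over time in culture, 15 Hox genes were called in controls and 1 in KO cells. In controls, 14 of 35 members (40.0%) were higher at day 5 than at day 3 and 1 (2.86%), Hoxd9, was lower, where 18.3% of all tested genes were higher and 19.9% lower. Of the 14, 10 are central members, among them Hoxc5 at 15.5, 11.8, 13.4 and 23.5 TPM in day 5 controls, against 5.34, 5.82 and 5.39 TPM in day 3 controls (log2 fold change 1.50 ± 0.23 (SE), adjusted p = 0.000175). Hoxc8 (log2 fold change 0.91 ± 0.17 (SE), adjusted p = 0.000966), Hoxb3 (log2 fold change 0.47 ± 0.10 (SE), adjusted p = 0.00206) and Hoxb5 (log2 fold change 0.85 ± 0.18 (SE), adjusted p = 0.0022) rose likewise, each in every day 5 control over every day 3 control. The other risers were Hoxa2, Hoxa3, Hoxa4, Hoxa5, Hoxa6, Hoxa7, Hoxa10, Hoxb6, Hoxb8 and Hoxc6, with log2 fold changes of 0.49 to 1.71.

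The control day effect depends on which embryos are paired. With the embryo label as a block, which rests on 218-e1 and 218-e6 and gives 219-e6-I and 218-e2 their own means, 9 members were called: Hoxa2, Hoxa3, Hoxa5, Hoxa10, Hoxb3, Hoxb5, Hoxc5 and Hoxc8 were higher and Hoxb9 was lower, where 14.3% of all tested genes were higher and 15.7% lower. Hoxa4, Hoxa6, Hoxa7, Hoxb6, Hoxb8, Hoxc6 and Hoxd9 lost their calls (adjusted p = 0.0627 to 0.421). Without the block, leaving out day 3 control replicate 1 ended the calls of Hoxa5, Hoxa7, Hoxa10, Hoxb8 and Hoxc6 (adjusted p = 0.059 to 0.174), and leaving out replicate 3 those of Hoxa7, Hoxa10, Hoxb8, Hoxc6 and Hoxd9 (adjusted p = 0.0648 to 0.141). Hoxd9 also lost its call without day 3 control replicate 2 (adjusted p = 0.108) or day 5 control replicate 1 (adjusted p = 0.0642). Leaving out day 5 control replicate 2 ended the calls of Hoxa10, Hoxc6 and Hoxd9 (adjusted p = 0.0531 to 0.0964), replicate 3 that of Hoxa10 (adjusted p = 0.0648), and replicate 4 those of Hoxa7, Hoxb8 and Hoxc6 (adjusted p = 0.095 to 0.106).

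In KO cells only Hoxb3 was called between the days, with 32.3, 29.8, 29.2 and 28.4 TPM at day 5, against 23.1, 18.2 and 20.3 TPM at day 3 (log2 fold change 0.43 ± 0.10 (SE), adjusted p = 0.0118). That is 2.86% of members higher and none lower, where 4.98% of all tested genes were higher and 7.06% lower. This call was lost when day 3 KO replicate 4 was left out (adjusted p = 0.0548). The median log2 change of the members was 0.23 in KO cells and 0.30 in controls, and 25 of the 35 in KO cells and 24 in controls had a positive sign.

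The difference between the days in the KO effect itself was called for Hoxc5 alone (log2 fold change -1.04 ± 0.32 (SE), adjusted p = 0.0415), 1 of 35 members lower (2.86%) where 7.15% of all tested genes were lower and 7.16% higher. This call was lost when day 3 KO replicate 2 or 3, or day 5 KO replicate 1, 2, 3 or 4, or day 3 control replicate 1, 2 or 3, or day 5 control replicate 1 was left out, or when the day 3 control libraries of 218-e1 were summed (adjusted p = 0.0551 to 0.093). For the other members the step between KO and control was not shown to differ between the days, the HoxA genes included: Hoxa5, for example, gave log2 fold change -0.96 ± 0.47 (SE), adjusted p = 0.192.

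Within the KO cells, the embryos parted at 1 gene, Hoxd13, at the posterior end of HoxD. Hoxd13, which forms digits and the genital tubercle together with Hoxa13, had 26.4 TPM at day 5 and 25.2 TPM at day 3 in embryo 136-e2-II, and 33.6 TPM at day 5 and 24.2 TPM at day 3 in 153-e5. It had 9.80 TPM at day 5 and 11.2 TPM at day 3 in 153-e3, and 11.1 TPM at day 5 in 159-e1. All controls lay between 8.2 and 12.8 TPM. Embryos 136-e2-II and 153-e5 were thus high at both days, and the other KO embryos lay within the control range or near it.

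In the embryo fit Hoxd13 was the one Hox gene called among the KO embryos (1 of 35, 2.86%; 1.01% of all tested genes; adjusted p = 0.00215). Between 153-e5 and 153-e3, which share a number prefix, litter number and sex, 2 genes of all tested were called (0.0140%; 0.00698% higher and 0.00698% lower), and Hoxd13 was the one that was higher in 153-e5 (log2 fold change 1.56 ± 0.20 (SE), adjusted p = 0.0227). Leaving out the shallow day 3 library of 153-e3 kept the call among KO embryos (adjusted p = 0.0141) and ended the call between 153-e5 and 153-e3 (log2 fold change 1.67 ± 0.24 (SE), adjusted p = 0.165). Its HoxD neighbours Hoxd10, Hoxd11 and Hoxd12 were not called, at log2 differences of 0.60 ± 0.31, 0.68 ± 0.33 and 1.94 ± 0.63 (SE) between those embryos. Across the KO and control groups Hoxd13 was not called (log2 fold change 0.92 ± 0.44 (SE), adjusted p = 0.0987 at day 3, and log2 fold change 0.84 ± 0.37 (SE), adjusted p = 0.0757 at day 5).

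**Figure D5:**
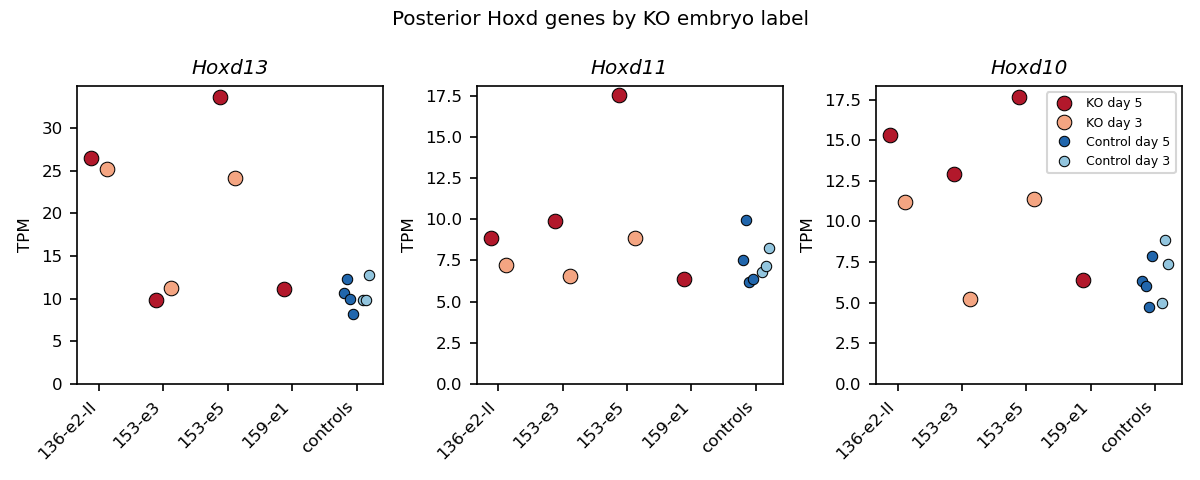
TPM (vertical axes, from 0) of Hoxd13, Hoxd11 and Hoxd10 in each KO embryo at day 5 and day 3 and in the 7 control libraries. Hoxd13 lies at 24.2 to 33.6 TPM in 136-e2-II and 153-e5 at both days and at 8.2 to 12.8 TPM in all other libraries.

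Of the 9 genes of Hox cofactors, 2 rose and 1 fell in KO cells at day 3 (33.3% called, against 50.9% of all tested genes), and 6 rose and 2 fell at day 5 (88.9%, against 52.5%), with median log2 fold changes of 0.18 and 0.41. Pbx3, a PBX partner, had 38.4, 57.2 and 41.6 TPM in day 3 KO libraries, against 17.2, 14 and 16.7 TPM in day 3 controls (log2 fold change 1.38 ± 0.13 (SE), adjusted p = 2.07e-06). Pbx2 fell at both days (log2 fold change -0.30 ± 0.09 (SE), adjusted p = 0.0144 at day 3, and log2 fold change -0.46 ± 0.08 (SE), adjusted p = 0.000186 at day 5). At day 5 Meis3 (log2 fold change 0.60 ± 0.10 (SE), adjusted p = 0.000211), Pbx3 (log2 fold change 0.51 ± 0.11 (SE), adjusted p = 0.00102), Pknox2 (log2 fold change 0.58 ± 0.12 (SE), adjusted p = 0.00123) and Meis2 (log2 fold change 0.41 ± 0.13 (SE), adjusted p = 0.0196) rose.

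Retinoic acid turns on Hox genes of low paralogue number in the embryo. Of 15 tested genes that make, carry or sense it, 8 rose and 1 fell at day 3. At day 5, 6 rose and 3 fell. That is 60.0% called at each day, against 50.9% and 52.5% of all tested genes. By direction, 24.6% of all tested genes rose and 26.2% fell at day 3, and 26.3% and 26.2% at day 5. Rdh10, which makes retinaldehyde, had 41.7, 32.4 and 35.5 TPM in day 3 KO libraries, against 12.6, 11.3 and 9.52 TPM in day 3 controls. It rose at both days (log2 fold change 1.66 ± 0.14 (SE), adjusted p = 6.38e-07 at day 3, and log2 fold change 1.23 ± 0.11 (SE), adjusted p = 1.23e-06 at day 5). The synthesis genes Aldh1a3 (log2 fold change 2.65 ± 0.50 (SE), adjusted p = 0.000676) and Aldh1a1 (log2 fold change 2.44 ± 0.59 (SE), adjusted p = 0.0041), the retinaldehyde reductase gene Dhrs3 (log2 fold change 2.27 ± 0.47 (SE), adjusted p = 0.0017) and the uptake receptor gene Stra6 (log2 fold change 5.10 ± 1.19 (SE), adjusted p = 0.0027) rose at day 3. At day 5 Crabp2 (log2 fold change 0.96 ± 0.13 (SE), adjusted p = 3.34e-05), the degrading enzyme gene Cyp26b1 (log2 fold change 2.28 ± 0.43 (SE), adjusted p = 0.000898) and Stra6 (log2 fold change 3.59 ± 0.85 (SE), adjusted p = 0.00292) rose, and the receptor gene Rara fell (log2 fold change -0.43 ± 0.08 (SE), adjusted p = 0.000671). Crabp1, singled out after its values had been seen, encodes a retinoic acid binding protein and had 476, 296, 132 and 79.9 TPM in day 5 KO libraries, against 1658, 1815, 1475 and 94.7 TPM in day 5 controls. The 219-e6-I value, the last, lay at the low end of the KO values and the 218 controls far above (log2 fold change -4.06 ± 0.21 (SE), adjusted p = 8.89e-08 for 219-e6-I over the 218 embryos).

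Other genes of position were read from lists. Fore- and hindlimb selectors were both present: Tbx5, of the forelimb, had 6.78, 7.87, 7.53 and 11.2 TPM in day 5 KO libraries, against 4.93, 5.03, 4.31 and 2.8 TPM in day 5 controls. Tbx4, of the hindlimb, had 2.78, 6.1, 5.73 and 7.08 TPM in day 5 KO libraries, against 2.82, 3.3, 2.19 and 1.58 TPM in day 5 controls. Pitx1, which specifies the hindlimb, had 6.41, 8.03, 10.5 and 10.4 TPM in day 5 KO libraries, against 4.04, 5.47, 5.29 and 2.64 TPM in day 5 controls. All 3 rose at day 5 (log2 fold change 0.85 ± 0.22 (SE), adjusted p = 0.00552 for Tbx5; log2 fold change 0.98 ± 0.28 (SE), adjusted p = 0.00848 for Tbx4; log2 fold change 0.92 ± 0.25 (SE), adjusted p = 0.00596 for Pitx1). Of the 26 tested limb and flank genes, 13 rose and 1 fell at day 3 (53.8% called), and 15 rose and 2 fell at day 5 (65.4% called), where 24.6% of all tested genes rose and 26.2% fell at day 3 and 26.3% rose and 26.2% fell at day 5, while Sall4 was at 0 TPM in every library and Shh in all but 1. En1, of the ventral limb and body wall, was at 4.8 TPM in 219-e6-I and 22.3 to 27.6 TPM in the 218 controls of day 5 (log2 fold change -2.25 ± 0.29 (SE), adjusted p = 0.000192), and at 14.9, 14.5, 9.64 and 5.53 TPM in day 5 KO libraries.

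Head, tail and trunk lists had few expressed members. The head gene Otx2 was at 0 TPM in every library, and of 15 tested head and arch genes 5 rose and 3 fell at day 3 and 4 rose and 2 fell at day 5 (53.3% and 40.0% called, against 50.9% and 52.5% of all tested genes). Pax9, of pharyngeal pouches and sclerotome, had 7.68, 12.4, 7.99 and 12.1 TPM in day 5 KO libraries, against 2.13, 0.976, 2.78 and 6.35 TPM in day 5 controls (log2 fold change 1.59 ± 0.43 (SE), adjusted p = 0.00784). The tail gene Cdx2 was at 0 TPM in every library and T reached at most 0.0508 TPM. In the genital and tail list 4 of 6 tested genes rose at each day, 66.7% of the list, where 24.6% of all tested genes rose at day 3 and 26.3% at day 5. Those 4, Foxc1, Foxc2, Pax1 and Uncx, are known from sclerotome and other paraxial mesoderm. Foxc1 had 103, 118, 101 and 124 TPM in day 5 KO libraries, against 18.9, 16, 25.3 and 86.2 TPM in day 5 controls, its 219-e6-I value standing near the KO level (log2 fold change 2.18 ± 0.14 (SE), adjusted p = 7.48e-07 for 219-e6-I over the 218 embryos). In the list of viscera and heart, 4 of 10 tested genes rose at day 3 and 6 at day 5 (40.0% and 60.0% of the list, against 24.6% and 26.3% of all tested genes). Foxf1, of gut and lung mesenchyme, was among them (log2 fold change 1.15 ± 0.26 (SE), adjusted p = 0.00196 at day 5).

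Of 41 Polycomb and Trithorax genes, which keep Hox clusters on or off, 5 rose and 17 fell in KO cells at day 3, and 9 rose and 12 fell at day 5. The shares called in either direction, 53.7% and 51.2%, lay near those of all tested genes, 50.9% and 52.5%. By direction, 24.6% of all tested genes rose and 26.2% fell at day 3. At day 5, 26.3% of them rose and 26.2% fell. Pcgf2, which encodes the Polycomb protein MEL18, fell at both days (log2 fold change -1.24 ± 0.13 (SE), adjusted p = 5.49e-06 at day 3, and log2 fold change -0.71 ± 0.11 (SE), adjusted p = 0.000112 at day 5). Kdm6b, a demethylase of the Polycomb mark, fell as well (log2 fold change -0.88 ± 0.10 (SE), adjusted p = 5.72e-06 at day 3, and log2 fold change -0.82 ± 0.08 (SE), adjusted p = 2.41e-06 at day 5). Brpf3, a scaffold of acetyltransferase complexes, also fell (log2 fold change -0.87 ± 0.07 (SE), adjusted p = 6.46e-07 at day 3, and log2 fold change -0.73 ± 0.06 (SE), adjusted p = 5.01e-07 at day 5). The histone methyltransferase genes Kmt2b (log2 fold change -0.57 ± 0.08 (SE), adjusted p = 6.9e-05) and Kmt2d (log2 fold change -0.65 ± 0.10 (SE), adjusted p = 8.59e-05) fell at day 3. At day 5 Ring1 (log2 fold change 1.05 ± 0.15 (SE), adjusted p = 7.23e-05) and Cbx7 (log2 fold change 1.72 ± 0.27 (SE), adjusted p = 0.00014), both of Polycomb repressive complexes, rose.

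Overlap of transcripts limits some single-gene values. In GENCODE M21, 9 members share exon bases with another gene of the same strand, 10 with a gene of the opposite strand, and 23 with neither. Hoxd3 and Hoxd4 share 62.3% and 52.3% of their exon bases on the same strand, with each other and other genes of the cluster, and 52.9% of Hoxb3 lies opposite to other exons. The kit marks strand, but the strand setting of the counting is not given in the sources used here, so counts of Hoxb3 and of its antisense partner cannot be told apart. Hoxa5, Hoxa6, Hoxa10, Hoxb6, Hoxd8 and Hoxd13 overlap no other annotated exon.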

How the data were processed

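RNA was sequenced from 14 libraries of fibroblasts with a stranded mRNA kit and 80-base paired reads, per the labels' protocols. The authors deposited read counts per gene identifier, with gene length, made with featureCounts on mm10 per the submitters' processing notes. For the aligner, the tool versions and the strand setting: not given in the sources used here. Each table has 27179 lines, of which 909 name no gene and were left out (0.194% to 0.315% of counts).

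From these counts edgeR 4.0.16 (R 4.3.3, limma 3.58.1) fitted 1 mean for each of the 4 groups over all 14 libraries, with filterByExpr, TMM factors and the robust quasi-likelihood test. Benjamini-Hochberg adjustment ran over all 14327 genes tested, and an adjusted p under 0.05 was called. The 112 sex genes were left out of the tests. TPM was computed in R from counts and the deposited gene length, with the sex genes left out of the sum used for scaling. Python 3.11.15 was used for summaries and figures. SE is the log2 fold change divided by the root of the F statistic. The code was tested on simulated data. DESeq2 1.42.0, other scaling, no filter, a sex covariate, blocks and leaving out single libraries were alternatives.

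The fit with 1 mean per embryo, and those of it without a library, were added after seeing the data. Members and lists were chosen with earlier results of these data known. Values per library are given for Kat5, for members with a mean of 10 TPM or more and for called members in order of adjusted p; from each other list, up to 5 called genes were named per comparison, and genes of limb, head and tail by their level. A few genes are counted but not reported here by name. Libraries with the same embryo label at both days come from the same animal and so pair the days; their deviations from the group means correlated at -0.0229 to 0.204 over genes. The labels do not say whether replicates were separate cultures, so p-values measure the spread between these libraries, which may be partly technical. Counting error alone limits low genes most in the shallowest library, with 2182919 counts.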

Additional observations from a re-analysis of the deposited data

Results flagged for a closer look

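In the day 5 groups of 4 libraries, 6 of 70 checks on log2 CPM found a library whose gap to its nearest neighbour, divided by the range of the group, passed Dixon's critical value; chance gives about 1 in 20. In 3 of them, day 5 control replicate 4 (219-e6-I) was the highest: Hoxa3 (ratio 0.861), Hoxa5 (ratio 0.872) and Hoxa7 (ratio 0.929). Day 5 KO replicate 1 (159-e1) was the lowest for Hoxb5 (ratio 0.835) and Hoxc11 (ratio 0.836), and day 5 KO replicate 4 (153-e5) was the highest for Hoxc13 (ratio 0.977). The KO effect on Hoxc5 differed between the days by -1.04 on the log2 scale (day 5 minus day 3), as tested by the interaction term in edgeR (adjusted p = 0.0415).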

How the results depend on the processing

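No Hox call changed direction under any alternative run. Of the values of called genes under alternatives, 485 kept their side of the threshold and 91 lost it. Leaving out 1 library at a time gave 10 to 13 called members in KO against control at day 3, 9 to 15 at day 5, 0 to 1 between the days in KO cells, 10 to 15 between the days in controls, and 0 to 2 for the difference of the KO effect between days. In the same order 6243 to 6786, 6499 to 8373, 1024 to 1602, 4362 to 5686 and 1275 to 2745 of all tested genes (14219 to 14596) were called. With the embryo as a replicate block, 9 members were called between the days in controls, and the blocked fit gave 1 in KO cells and 1 for the difference of effects. Of all 14327 genes tested in that fit, 4293, 1777 and 1561 were called. With sex as a covariate, 2 members were called between the days in KO cells and 2 for the difference of effects, where 2086 and 2478 of all 14327 tested genes were called. The DESeq2 Wald test called 2 members for the difference of effects, and 2403 of all 14323 tested genes. Summing the day 3 control libraries of 218-e1 left 0 members by edgeR, and 1806 of all 14689 tested genes. For the same difference, 7 members had an unadjusted p under 0.05 in the edgeR fit of all libraries. The cause was not tested. KO and control libraries of the same replicate number are not the same animal, and their deviations correlated at -0.166 to 0.428. With that number as a replicate block, 11 members were called at day 3 and 13 at day 5, where 6863 and 7873 of all 14327 tested genes were called. Low members (Hoxa13, Hoxc11, Hoxc13, Hoxd12) rest on few counts in the shallowest library.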
